A study of Mus musculus with 24 samples.

Results

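The *Chd4-ECko* effect was compared here between liver sinusoidal endothelial cells (LSECs) and the non-endothelial (non-EC) cells of mouse embryonic livers. For each gene the effect in a fraction was the *Chd4-ECko* mean minus the control mean on the log2(TPM + 1) scale, and the interaction was the effect in LSECs minus the effect in non-EC cells. TPM is a relative transcript level, scaled by gene length and to the same total in every library. Of the 24 libraries in the series, 12 belonged to this comparison, 3 embryos in each of 4 groups, and 13397 of the 25361 genes in the table were tested because they reached 1 TPM in at least 3 of the 12 libraries. All embryos were at embryonic day (E) 12.5 and all libraries carried the same batch label. *Chd4-ECko* embryos were *Chd4* fl/fl;*Brg1* fl/+;*VE-cadherin-Cre*+, so that their endothelium also carried 1 floxed *Brg1* allele, and controls were Cre-negative littermates that carried floxed alleles. The *VE-cadherin-Cre* transgene is driven by an endothelial promoter and is also active in some blood cells. Cells bound by magnetic beads against CD146, a surface protein of endothelium and pericytes, formed the LSEC fraction, and the unbound cells formed the non-EC fraction. Embryos were males and females of a mixed background.

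CHD4 is the ATP-driven motor of the NuRD complex, which joins nucleosome remodeling to histone deacetylation and is best known for keeping genes silent. LSECs line the blood channels of the liver with a porous, scavenging endothelium. In the fetal liver they lie among hepatoblasts, which are the precursors of hepatocytes, and among large numbers of blood-forming cells, so that the non-EC fraction is largely made of hepatoblasts and of red cell, myeloid and progenitor cells.

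The fractions separated on their defining markers. *Stab2*, a scavenger receptor of sinusoidal endothelium, ranged from 95.9 to 146 TPM in the 6 LSEC libraries and from 0.34 to 1.00 TPM in the 6 non-EC libraries, and the 25 endothelial and sinusoidal markers summed to between 2963 and 3846 TPM in LSECs and to between 90.2 and 148.5 TPM in non-EC cells. The LSEC fraction was not pure, since its libraries also held between 4237 and 8531 summed TPM of hepatoblast markers and between 1429 and 2347 summed TPM of mesenchymal markers, the latter far above the non-EC level of 64.2 to 227 TPM. Between 11450 and 12999 genes reached 1 TPM in a library. Mitochondrial transcripts made up 24.5%, 20.6% and 24.6% of TPM in control LSECs and 31.5%, 20.4% and 14.1% in *Chd4-ECko* LSECs, in the order of replicates 1, 2 and 3. They made up 7.69%, 6.17% and 7.51% in control and 7.37%, 3.43% and 2.33% in *Chd4-ECko* non-EC cells. The share was below every control in *Chd4-ECko* non-EC replicates 2 and 3. *Chd4* itself measured 285, 255 and 246 TPM in control LSECs and 223, 168 and 252 TPM in *Chd4-ECko* LSECs. These groups overlapped, the effect in LSECs was −0.30 ± 0.14 (SE) with an adjusted p of 0.63, and the interaction was −0.18 ± 0.19 with an adjusted p of 0.649. The gene-level TPM adds all exons, so it does not show loss of a floxed exon and does not check the genotype labels. Replicate 3 of *Chd4-ECko* had almost no Y-linked transcripts in either fraction (*Eif2s3y* 0.52 TPM in LSECs and 1.28 TPM in non-EC cells), whereas *Eif2s3y* lay between 15.2 and 74.9 TPM in the other 10 libraries. The lowest correlation between replicates was 0.960 among *Chd4-ECko* non-EC libraries, against 0.987 in control non-EC cells. In that mutant group replicate 1 had the highest mitochondrial share (7.37%) and the highest hepatoblast marker sum (42620 TPM). Leaving it out moved the count of passing genes most, from 67 to 1077, and results are therefore also given without it.

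The *Chd4-ECko* effect differed between the 2 fractions for 67 genes, of which 36 were higher in LSECs relative to non-EC cells and 31 were lower. A gene was counted when its adjusted p was below 0.05 and its interaction exceeded 1 on the log2 scale (limma with Benjamini-Hochberg adjustment over all 13397 genes), so that these were 0.269% and 0.231% of all genes tested. Within LSECs alone 63 genes passed the same rule, 56 higher (0.418%) and 7 lower (0.0523%) in *Chd4-ECko*, and within non-EC cells 89 passed, 49 higher (0.366%) and 40 lower (0.299%). The non-EC split depended on the libraries and on the fit. Without *Chd4-ECko* non-EC replicate 1 it was 74 higher and 955 lower, and in a model of the 2 non-EC groups alone 28 and 2. Across all genes tested the median interaction was 0.04, the median effect was 0.01 in LSECs and 0.01 in non-EC cells, and the correlation between both effects was 0.136 over genes, which are not independent replicates. The 36 higher genes had a median effect of 1.16 in LSECs and −0.31 in non-EC cells. The 31 lower genes had a median effect of −0.23 in LSECs and 0.93 in non-EC cells.

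Set out by fraction, 24 of the 36 higher genes also rose in *Chd4-ECko* LSECs, 5 fell in *Chd4-ECko* non-EC cells and 7 passed in neither fraction alone. Of the 31 lower genes, 7 rose in non-EC cells, 2 fell in LSECs and 22 passed in neither. The effect had opposite signs in the 2 fractions for 28 of the 36 and for 29 of the 31, against 47.9% of all genes tested, a share that selecting on the interaction raises. Of the 36 higher genes, 29 (80.6%) had a higher level in non-EC cells than in LSECs of the controls, as did 13 (41.9%) of the 31 lower genes and 54.5% of all genes tested. The control levels are themselves part of the interaction that chose the genes, so these shares are a description. Of the 67 genes, 5 higher and 2 lower reached the level for testing only through the group in which they were highest, as did 531 of all genes tested, so that the filter favored a difference in these 7, and their part of the count is no support. Without mitochondrial genes, and with the rest scaled to the same total, 51 genes passed in the interaction and 57 in non-EC cells. The part of the mitochondrial share in the single-gene results was otherwise not tested. The counts of passing genes depended on single libraries. Without control non-EC replicate 1 no gene passed (limma, with 1698 genes at an unadjusted p below 0.05 against 2301 with all libraries), and without *Chd4-ECko* non-EC replicate 1 1077 genes passed, 973 of them higher, including 63 of the 67. Same-numbered LSEC and non-EC libraries deviated together within a genotype, and with that pairing as a block 48 genes passed, 40 higher and 8 lower, 34 of them among the 67.

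**Figure D1:**
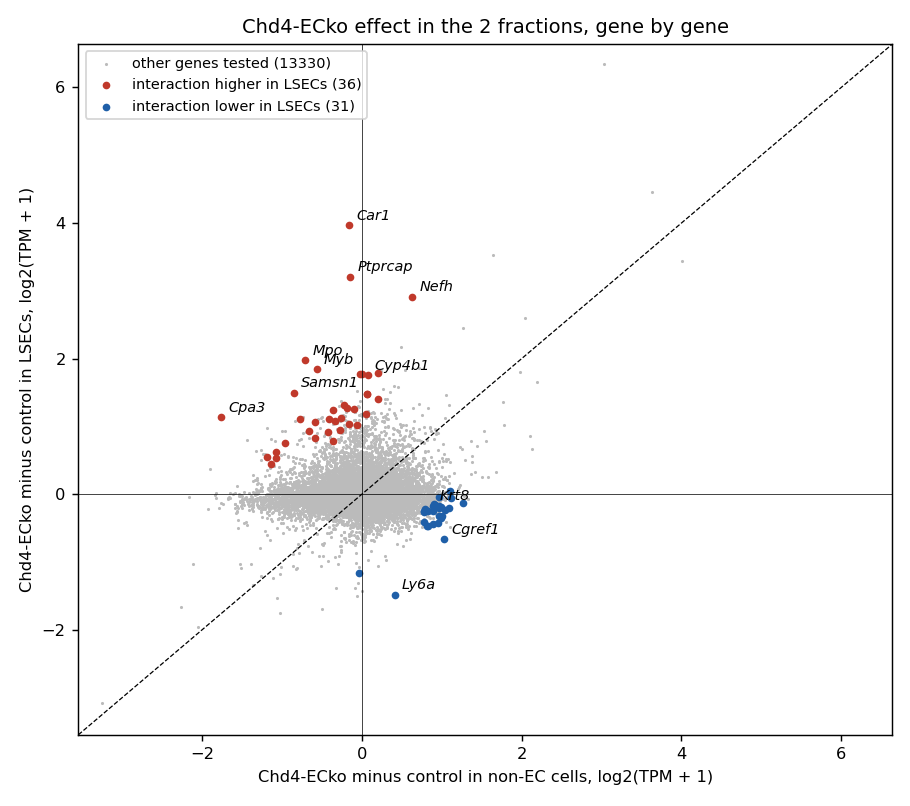
Each point is a gene, with the *Chd4-ECko* minus control difference in non-EC cells on the x axis and in LSECs on the y axis, both in log2(TPM + 1), and the dashed line marks equal effects. The 36 genes in red lie above the line, mostly near or left of 0 on the x axis and above 0 on the y axis, and most of the 31 genes in blue lie to the right near 0 on the y axis, while *Ly6a* is low on the y axis.

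The largest interactions belonged to genes of blood cells. *Car1*, which encodes a carbonic anhydrase of red cells, lies on chromosome 3 (GRCm39, 14831269 to 14873459). In control LSECs *Car1* measured 1.18, 1.15 and 0.34 TPM, and in *Chd4-ECko* LSECs it measured 20.2, 58.8 and 18.1 TPM. In non-EC cells it measured 16.3, 21.1 and 21.3 TPM in controls and 14.5, 22.9 and 15.5 TPM in *Chd4-ECko*. All *Chd4-ECko* LSEC libraries were thus above all control LSEC libraries and reached the level of non-EC cells, while the non-EC groups overlapped. The interaction of *Car1* was 4.13 ± 0.52 (adjusted p 0.0128), from an LSEC effect of 3.97 ± 0.37 (adjusted p 0.00023) and a non-EC effect of −0.16 ± 0.37 (adjusted p 0.825).

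*Ptprcap*, a partner of the leukocyte phosphatase CD45, had the next largest interaction. It measured 1.02, 0.568 and 0.966 TPM in control LSECs and 15.2, 25.2 and 10.5 TPM in *Chd4-ECko* LSECs. Its level in non-EC cells was 48.2, 43.2 and 43.5 TPM in controls and 29.5, 47.3 and 47.7 TPM in *Chd4-ECko*. LSECs of the mutant again lay clear of the controls and below every non-EC library, and the interaction was 3.35 ± 0.38 (adjusted p 0.0114). *Samsn1*, an adaptor protein of blood cells on chromosome 16 (GRCm39, 75655681 to 75819169), moved in opposite directions in the 2 fractions. Control LSECs held 5.11, 5.61 and 6.67 TPM of *Samsn1* and *Chd4-ECko* LSECs 15.9, 20.8 and 17.8 TPM. Control non-EC cells held 51.3, 41.6 and 56.0 TPM and *Chd4-ECko* non-EC cells 37.9, 28.8 and 17.6 TPM. The groups did not overlap in either fraction, and non-overlap occurred for 8.79% of genes upward in LSECs and 10.8% downward in non-EC cells. Both effects are part of the interaction that chose *Samsn1*. For *Samsn1* the interaction was 2.35 ± 0.33 (adjusted p 0.0128), with 1.50 ± 0.23 (adjusted p 0.00966) in LSECs and −0.85 ± 0.23 (adjusted p 0.0543) in non-EC cells.

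*Myb*, a transcription factor of blood progenitors, and *Mpo*, the granule enzyme myeloperoxidase of neutrophil precursors, were far more abundant in non-EC cells. *Myb* measured 6.33, 4.78 and 4.17 TPM in control LSECs and 30.1, 15.4 and 19.08 TPM in *Chd4-ECko* LSECs, against 219, 176 and 232 TPM and 167, 151 and 109 TPM in control and *Chd4-ECko* non-EC cells. Its 2 fractions moved toward each other without overlap in either, and the interaction was 2.41 ± 0.33 (adjusted p 0.0128). *Mpo* measured 1.87, 0.874 and 0.585 TPM in control LSECs and 12.0, 4.83 and 5.85 TPM in *Chd4-ECko* LSECs, and 288, 128 and 318 TPM and 132, 148 and 136 TPM in the corresponding non-EC cells. *Mpo* was higher in all mutant LSEC libraries, the non-EC groups overlapped at the low control replicate 2, and the interaction was 2.69 ± 0.50 (adjusted p 0.0406), which did not pass with the pairing block (adjusted p 0.0554). *Ikzf1*, the lymphoid and progenitor factor Ikaros, rose in LSECs by 1.09 and had an interaction of 1.42 ± 0.21 (adjusted p 0.0155). In these bulk libraries, a change in the number of cells of a type and a change in RNA per cell cannot be told apart. Control LSEC libraries already held between 361 and 461 summed TPM of leukocyte markers. More blood cells in the LSEC fraction and a higher level in endothelium therefore cannot be told apart either. Without control non-EC replicate 1 the adjusted p of *Car1*, *Ptprcap*, *Samsn1*, *Myb*, *Mpo* and *Ikzf1* rose to between 0.0555 and 0.0954, with every direction kept.

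Upstream sequences are shown for 4 of the higher genes and for *Krt8*, one of the lower genes, as examples of blood, mast cell, neuronal and hepatoblast genes among the 67. Each run is the 250 bases before the start of the canonical GENCODE transcript, read 5′ to 3′ on the gene's strand (minus for all 5) from GRCm39, at chr3:14843520-14843769 for *Car1*, chr3:20296363-20296612 for *Cpa3*, chr16:75706199-75706448 for *Samsn1*, chr11:4898131-4898380 for *Nefh* and chr15:101912918-101913167 for *Krt8*. None of these windows held an exon of its own gene. The windows of *Car1* and *Samsn1* lie inside the annotated genes, which reach upstream to 14873459 and 75819169. Sequence before those outer ends was not searched. Capitals mark GATAA or AGATAA, the core of GATA factor motifs, GGAAGT, the core of ETS factor motifs, and CACGTG, an E-box, on either strand; AGATAA contains GATAA.
Car1: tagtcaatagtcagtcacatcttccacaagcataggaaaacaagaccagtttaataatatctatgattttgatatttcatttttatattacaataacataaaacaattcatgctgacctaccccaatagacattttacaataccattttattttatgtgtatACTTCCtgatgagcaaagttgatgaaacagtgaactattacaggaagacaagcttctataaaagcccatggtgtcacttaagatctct
Cpa3: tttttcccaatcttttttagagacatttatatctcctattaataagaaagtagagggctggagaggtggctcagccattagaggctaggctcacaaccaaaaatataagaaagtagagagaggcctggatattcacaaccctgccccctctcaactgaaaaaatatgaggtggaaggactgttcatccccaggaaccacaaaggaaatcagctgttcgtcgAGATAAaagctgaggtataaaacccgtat
Samsn1: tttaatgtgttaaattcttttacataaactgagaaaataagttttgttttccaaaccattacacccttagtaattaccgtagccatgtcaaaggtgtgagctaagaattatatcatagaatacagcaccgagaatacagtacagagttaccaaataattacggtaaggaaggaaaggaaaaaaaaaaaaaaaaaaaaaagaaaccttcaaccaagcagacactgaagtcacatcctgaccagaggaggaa
Nefh: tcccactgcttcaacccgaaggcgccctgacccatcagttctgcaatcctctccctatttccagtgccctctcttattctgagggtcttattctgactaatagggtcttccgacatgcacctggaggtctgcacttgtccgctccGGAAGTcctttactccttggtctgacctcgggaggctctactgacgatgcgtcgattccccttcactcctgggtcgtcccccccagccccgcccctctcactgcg
Krt8: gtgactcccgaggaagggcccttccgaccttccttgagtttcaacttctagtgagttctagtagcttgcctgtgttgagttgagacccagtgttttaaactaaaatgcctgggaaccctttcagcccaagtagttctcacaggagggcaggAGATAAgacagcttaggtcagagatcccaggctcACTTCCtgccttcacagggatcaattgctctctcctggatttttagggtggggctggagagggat

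AGATAA occurred in the windows of *Cpa3* and *Krt8*, GGAAGT in those of *Car1*, *Nefh* and *Krt8*, and none of the searched letters in that of *Samsn1*. Over the 13394 windows of all tested genes with one, GATAA was found in 17.7%, AGATAA in 7.49%, GGAAGT in 20.4% and CACGTG in 7.61%. Among the 36 higher genes GATAA was found in 10 (27.8%), AGATAA in 6 (16.7%), GGAAGT in 7 (19.4%) and CACGTG in 2 (5.56%). Among the 31 lower genes the counts were 8 (25.8%), 5 (16.1%), 9 (29.0%) and 1 (3.23%). The ratio of observed to expected CpG had a median of 0.268 in the higher and 0.391 in the lower genes, against 0.642 over all windows. A match is a run of letters and says nothing of occupancy by a factor.

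Other genes rose in *Chd4-ECko* LSECs, passed in no non-EC comparison and were not markers of abundant liver blood cells. *Nefh*, the heavy chain of neurofilaments of neurons, lies on chromosome 11 (GRCm39, 4888740 to 4898130). Its level was 1.15, 1.41 and 1.13 TPM in control LSECs and 13.8, 20.2 and 14.03 TPM in *Chd4-ECko* LSECs. The non-EC level was 4.55, 3.47 and 5.82 TPM in controls and 5.11, 10.03 and 8.38 TPM in *Chd4-ECko*. Mutant LSECs were above every other library, and non-EC groups overlapped. *Nefh* had an LSEC effect of 2.91 ± 0.24 (adjusted p 0.000184), a non-EC effect of 0.63 ± 0.24 (adjusted p 0.105) and an interaction of 2.28 ± 0.33 (adjusted p 0.0155). *Cyp4b1*, a cytochrome P450 of the fatty acid-hydroxylating family, lies on chromosome 4 (GRCm39, 115476281 to 115504999). It measured 0.878, 1.21 and 1.24 TPM in control LSECs, 6.54, 7.34 and 4.72 TPM in *Chd4-ECko* LSECs and was listed at 0 in 5 of 6 non-EC libraries, with 0.166 TPM in *Chd4-ECko* replicate 2. The LSEC groups were well separated, and the interaction was 1.68 ± 0.23. *Cyp4b1* reached 1 TPM in all 3 *Chd4-ECko* LSEC libraries and in 2 control LSEC libraries. It entered the tested set only through its level in the mutant, so its difference is given as a description.

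*Thy1*, a surface glycoprotein of neurons, some T cells and some stromal cells, measured 2.82, 3.41 and 2.96 TPM in control LSECs and 13.1, 13.6 and 12.4 TPM in *Chd4-ECko* LSECs, and at most 0.683 TPM in non-EC cells. The rise was tight among mutant embryos, with an interaction of 1.59 ± 0.23 (adjusted p 0.0129). *Prl3b1*, a placental lactogen of the prolactin family, measured 0.46, 0 and 0.266 TPM and 3.48, 3.95 and 2.30 TPM in control and *Chd4-ECko* LSECs and was listed at 0 in all 6 non-EC libraries. It reached 1 TPM in the 3 *Chd4-ECko* LSEC libraries alone, so its difference is given as a description with no test. The level is also uncertain, since prolactin family genes are similar in sequence and the treatment of reads that map to several genes was not given in the sources used here. *Cpne7*, a copine, measured 0.0682, 0.109 and 0.177 TPM in control LSECs and 2.63, 4.01 and 2.10 TPM in *Chd4-ECko* LSECs, with 3.15, 3.28 and 3.21 TPM and 1.82, 3.41 and 4.72 TPM in non-EC cells. The mutant LSEC level of *Cpne7* thus reached the range of non-EC cells, and its interaction was 1.80 ± 0.34 (adjusted p 0.0406), with an adjusted p of 0.0717 under the pairing block. *Sncg*, a synuclein of neurons, rose in LSECs by 1.15 ± 0.15 (adjusted p 0.00368) and had an interaction of 0.98 ± 0.22 (adjusted p 0.0663), short of the threshold. Over the 12 tested neuronal markers the median interaction was −0.28, with 7 below 0 and *Nefh* and *Thy1* passing higher. That median ranged from −0.46 to 0.56 over the alternatives, and was −0.11 without *Chd4-ECko* non-EC replicate 1. The other tested neurofilament genes, *Nefl* and *Nefm*, had interactions of −0.79 and −1.12, and neither passed. For *Nefh*, *Thy1* and *Cpne7* the adjusted p without control non-EC replicate 1 was between 0.0594 and 0.0905. With a pseudocount of 0.1 TPM *Thy1* no longer passed (adjusted p 0.191), and *Cpne7* did not pass in 13 of 20 alternatives.

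**Figure D2:**
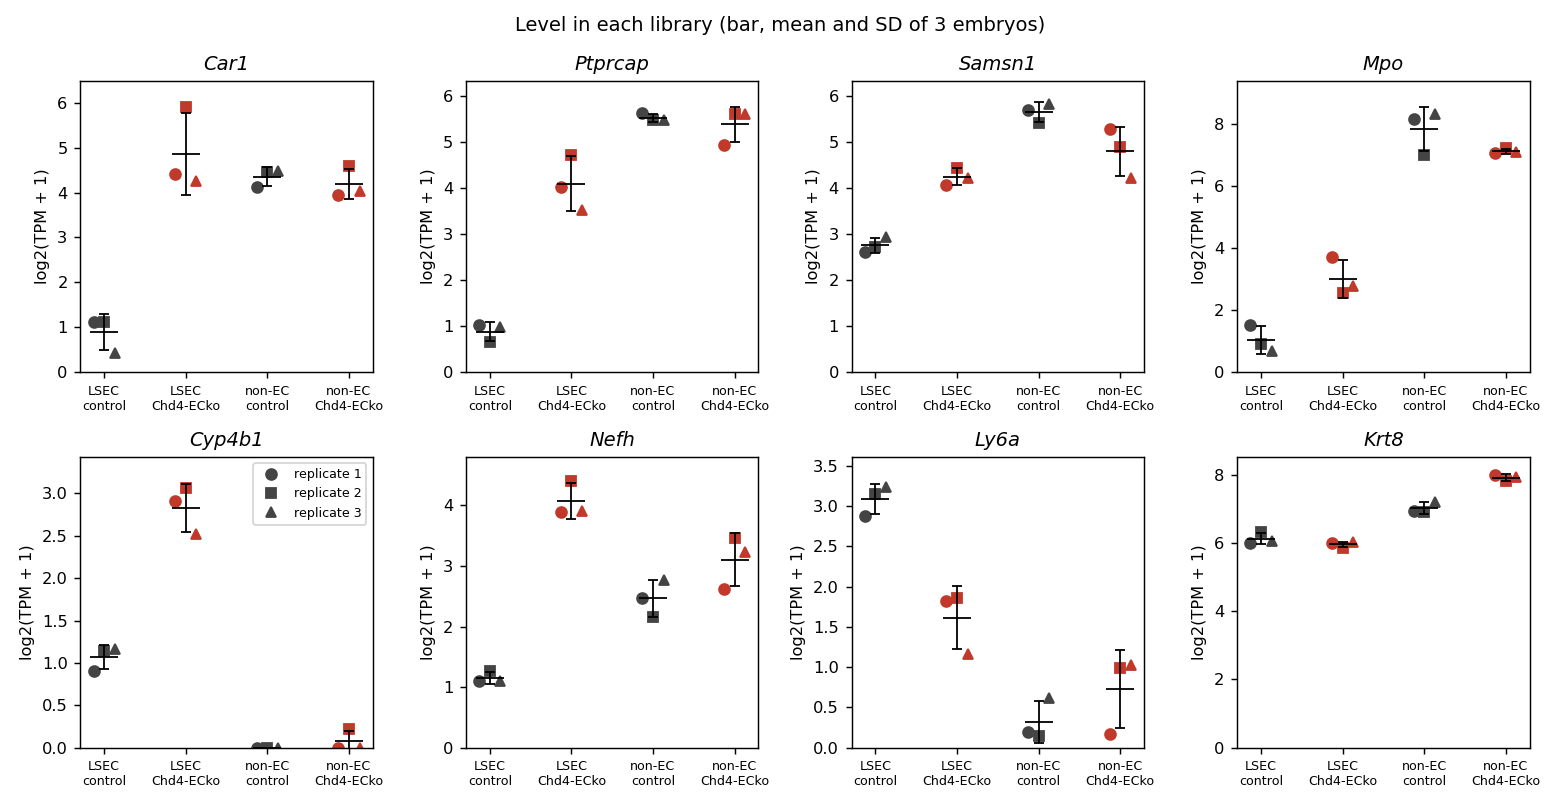
Level of 8 genes in each of the 12 libraries, in log2(TPM + 1) on the y axis, with the 4 groups on the x axis, a marker shape for each replicate number, and a bar for the mean and SD of 3 embryos. *Car1*, *Ptprcap*, *Samsn1* and *Mpo* rise in *Chd4-ECko* LSECs toward the higher non-EC level, *Cyp4b1* and *Nefh* rise above it, *Ly6a* falls in LSECs, and *Krt8* is higher in *Chd4-ECko* non-EC cells, with an LSEC effect of −0.17.

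In a smaller set, the interaction came mainly from a fall in *Chd4-ECko* non-EC cells. *Cpa3*, a carboxypeptidase of mast cells and their progenitors, measured 11.4, 4.51 and 17.9 TPM in control non-EC cells and 1.72, 2.70 and 2.28 TPM in *Chd4-ECko* non-EC cells. In LSECs it measured 0.113, 0.0903 and 0.195 TPM in controls and 0.891, 2.39 and 1.41 TPM in *Chd4-ECko*. The groups did not overlap in either fraction. *Cpa3* fell in non-EC cells by 1.76 ± 0.36 with an adjusted p of 0.0223, its LSEC effect of 1.14 ± 0.36 (adjusted p 0.258) did not pass, and its interaction was 2.90 ± 0.50 (adjusted p 0.0294). *Il1rl1*, the receptor for interleukin 33, measured 5.17, 5.13 and 5.58 TPM in control and 2.69, 2.22 and 1.25 TPM in *Chd4-ECko* non-EC cells, and between 0.427 and 1.53 TPM in LSECs. *Ccnb1ip1*, which acts in meiotic recombination, measured 29.4, 27.1 and 33.0 TPM in control and 12.8, 14.2 and 10.8 TPM in *Chd4-ECko* non-EC cells. Both fell without overlap, and their interactions were 1.69 ± 0.25 (adjusted p 0.0155) for *Il1rl1* and 1.74 ± 0.26 (adjusted p 0.0155) for *Ccnb1ip1*. The other two genes that fell in non-EC cells, *Ints6l* and *Cpeb4*, were named after their values were seen, and had non-EC effects of −1.08 ± 0.19 (adjusted p 0.0137) and −1.13 ± 0.22 (adjusted p 0.019). *Muc13*, a mucin, *Tspan8*, a tetraspanin, and *4930447C04Rik* had interactions of 1.72, 1.65 and 1.88, from smaller effects of opposite sign in both fractions, and *Muc13* did not pass with the pairing block (adjusted p 0.0509). Without control non-EC replicate 1 the adjusted p of *Cpa3*, *Il1rl1*, *Ccnb1ip1*, *Muc13*, *Tspan8* and *4930447C04Rik* was between 0.0594 and 0.0919.

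Among the genes that were lower in LSECs relative to non-EC cells, *Ly6a* and *Ankrd1* also passed as lower in LSECs themselves. For 13 of the 31 every mutant LSEC library was below every control (3.6% of all genes tested), a share that selecting on the interaction raises. *Ly6a* encodes the stem cell antigen SCA-1 and belongs to a family of similar genes. It measured 6.38, 7.92 and 8.46 TPM in control LSECs and 2.55, 2.62 and 1.24 TPM in *Chd4-ECko* LSECs, and at most 1.04 TPM in non-EC cells. All mutant LSEC libraries were below all controls. *Ly6a* fell in LSECs by 1.48 ± 0.26 (adjusted p 0.0214), and its interaction was −1.89 ± 0.36 (adjusted p 0.0409), which did not pass with the pairing block (adjusted p 0.0762). *Ankrd1*, a stress-responsive nuclear protein named here after its values were seen, reached 1 TPM in the control LSEC libraries alone and is given by its values, which were 1.75, 2.50 and 2.31 TPM in control LSECs and 0.226, 0.42 and 0.635 TPM in *Chd4-ECko* LSECs.

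The remaining 29 lower genes had a non-EC effect above 0, of which 7 passed in non-EC cells and none in LSECs (limma), so that 22 passed in neither fraction alone. Some of them were more abundant in LSECs. *Ramp2*, a partner of the adrenomedullin receptor in endothelium, measured 126, 122 and 108 TPM in control LSECs and 77.2, 90.4 and 97.5 TPM in *Chd4-ECko* LSECs, and 2.58, 2.42 and 1.98 TPM and 4.06, 6.18 and 6.40 TPM in control and *Chd4-ECko* non-EC cells. Neither fraction's groups overlapped, and the interaction was −1.39 ± 0.23 (adjusted p 0.0244). *Aif1l*, an actin-binding protein, and *Efnb1*, the ligand ephrin B1, had the same shape. *Aif1l* measured 2.70, 2.83 and 3.45 TPM in control and 7.10, 5.85 and 6.25 TPM in *Chd4-ECko* non-EC cells, with an interaction of −1.33 ± 0.21 (adjusted p 0.0202). *Efnb1* measured 7.47, 4.50 and 7.04 TPM and 12.0, 10.6 and 12.6 TPM there, with an interaction of −1.29 ± 0.24 (adjusted p 0.0409). *Gpx7*, a peroxidase of the endoplasmic reticulum, measured 6.25, 4.24 and 6.84 TPM in control and 11.7, 11.1 and 14.5 TPM in *Chd4-ECko* non-EC cells and had an interaction of −1.32 ± 0.26 (adjusted p 0.044). For each of these 4 genes every non-EC library was below every LSEC library.

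Other lower genes were more abundant in non-EC cells. *Krt8*, a keratin of epithelial cells, measured 121, 120.1 and 147 TPM in control non-EC cells and 255, 222 and 243 TPM in *Chd4-ECko* non-EC cells, and between 57.2 and 78.6 TPM in LSECs. The non-EC groups lay far apart and the LSEC groups overlapped. *Krt8* had a non-EC effect of 0.89 ± 0.12 (adjusted p 0.00855) and an interaction of −1.06 ± 0.17 (adjusted p 0.0242). *Gjb1*, the hepatocyte gap junction protein connexin 32, measured 38.7, 29.3 and 33.2 TPM in control and 72.1, 68.1 and 77.8 TPM in *Chd4-ECko* non-EC cells. *Slc39a5*, a zinc transporter, measured 13.9, 13.5 and 14.8 TPM and 33.9, 23.1 and 30.8 TPM, and *Hsd3b1*, a steroid dehydrogenase, 14.05, 12.7 and 12.9 TPM and 25.9, 24.2 and 22.3 TPM. All mutant non-EC libraries were above all controls for each, as were 15.3% of all genes tested. The non-EC effect is part of the interaction that chose these genes. Their interactions were −1.29 ± 0.25 (adjusted p 0.0409) for *Gjb1*, −1.34 ± 0.22 (adjusted p 0.0242) for *Slc39a5* and −1.29 ± 0.25 (adjusted p 0.0409) for *Hsd3b1*. *Sdc4*, a heparan sulfate proteoglycan, had the smallest p of the non-EC effect, with 69.0, 63.3 and 77.9 TPM in control and 171, 143 and 143 TPM in *Chd4-ECko* non-EC cells and between 46.4 and 55.8 TPM in LSECs. It rose in non-EC cells by 1.11 ± 0.12 (adjusted p 0.00752), and its interaction was −1.05 ± 0.17 (adjusted p 0.0241). *Aldoc*, a glycolytic aldolase, and *Cgref1*, a secreted calcium-binding protein, rose in non-EC cells by 1.12 and 1.04 and had interactions of −1.17 and −1.69. *Lrrc24* reached 1 TPM in the 3 *Chd4-ECko* non-EC libraries alone and is given by its values, which were 0.54, 0.981 and 0.842 TPM in control and 2.78, 4.74 and 2.64 TPM in *Chd4-ECko* non-EC cells.

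With the pairing block 7 of the 31 kept an adjusted p below 0.05, compared with 27 of the 36 higher genes. *Ramp2*, *Aif1l*, *Slc39a5* and *Krt8* were among the 7, with values between 0.0435 and 0.0488. The adjusted p under the block was between 0.0509 and 0.0858 for *Efnb1*, *Gpx7*, *Gjb1*, *Hsd3b1*, *Sdc4*, *Aldoc* and *Cgref1*. Without control non-EC replicate 1 the adjusted p of *Ly6a*, *Ramp2*, *Krt8*, *Sdc4* and the other lower genes named by rule and tested was between 0.0594 and 0.102.

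The interaction was then described over lists of cell type markers, which hold several genes already named. The lists were chosen with earlier results of these data known. Their counts, here and below, are therefore a description beside the share of all genes and no test. Of the 18 leukocyte genes tested, 17 had an interaction above 0, the median was 1.15 against 0.04 over all genes, and 3 passed (*Ptprcap*, *Samsn1* and *Ikzf1*). In LSECs 7 of the 18 rose, against 0.418% of all genes tested, including the signaling proteins *Vav1*, *Rac2* and *Was* and the lysosomal protein *Laptm5*, and the list had a median of 0.95. In non-EC cells its median was −0.14, and *Cd48* alone fell. *Ptprc*, which encodes the pan-leukocyte marker CD45, measured 6.58, 5.26 and 8.38 TPM in control LSECs, 10.3, 14.3 and 17.0 TPM in *Chd4-ECko* LSECs, 19.5, 8.21 and 23.0 TPM in control non-EC cells and 13.9, 6.52 and 4.48 TPM in *Chd4-ECko* non-EC cells. Its LSEC groups did not overlap, and its interaction of 1.90 had an adjusted p of 0.133. Summed over the list, the leukocyte level was 391, 361 and 461 TPM in control LSECs and 516, 734 and 706 TPM in *Chd4-ECko* LSECs, and 891, 623 and 952 TPM and 697, 782 and 697 TPM in the corresponding non-EC cells. The 3 mutant LSEC sums were above the 3 control sums and the non-EC sums overlapped.

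Of the 24 red cell genes tested all had an interaction above 0, with a median of 0.85, and *Car1* alone passed. With the pairing block 3 red cell, 5 leukocyte and 2 myeloid genes passed, each of them higher, as did 0.299% of all genes tested. The adult globins contributed little, with interactions of 0.04 for *Hbb-bs* and 0.21 for *Hba-a1*, and the summed red cell level overlapped between control and *Chd4-ECko*, from 732.2 to 2564 TPM in LSECs and from 5184 to 14947 TPM in non-EC cells. *Tfrc*, the transferrin receptor, fell in non-EC cells by 1.33 (adjusted p 0.046) and had an interaction of 1.96 ± 0.47 (adjusted p 0.0775). Of 25 myeloid genes 24 were above 0, with a median of 0.88 and *Mpo* alone passing. *Alox5*, the leukotriene-forming lipoxygenase, rose in LSECs by 2.17 and had an interaction of 1.67 ± 0.52 (adjusted p 0.156), which passed with the pairing block (adjusted p 0.0435). *Laptm5* likewise went from an adjusted p of 0.0545 to 0.0435 with the block. Of 12 blood stem and progenitor genes 8 were above 0, with a median of 0.77 and *Myb* alone passing. The 3 tested mast cell and basophil genes had a median of 1.50, with *Cpa3* passing, and that median ranged from 0.22 to 3.47 over the alternatives. The 14 megakaryocyte genes had a median of 0.47 and 4 tested lymphoid genes 0.38, and none passed (limma, with 1 of each list at an unadjusted p below 0.05). Over the alternatives these medians ranged from 0.24 to 0.88 for megakaryocyte genes and from 0.19 to 0.65 for lymphoid genes. The lymphoid gene *Cd3e* was at or below 0.290 TPM and the basophil gene *Mcpt8* at or below 0.161 TPM in every library. *Chd4-ECko* non-EC replicate 1 bore on these counts, since without it 10 leukocyte, 4 red cell, 4 myeloid, 2 progenitor and 1 lymphoid genes passed as higher, where 7.26% of all genes tested did so, whereas without control non-EC replicate 1 none did.

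**Figure D3:**
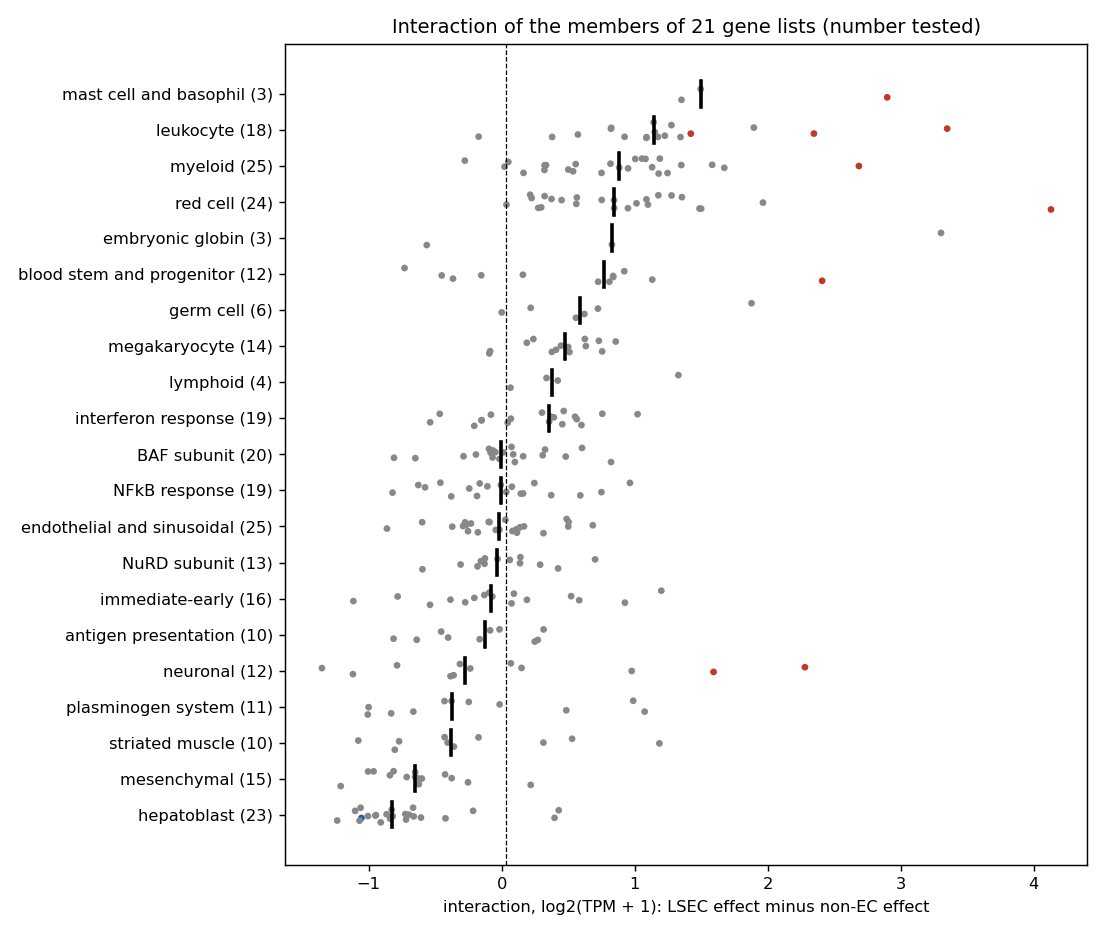
Interaction of each tested member of 21 gene lists, in log2(TPM + 1) on the x axis, with the number tested in parentheses, a black bar for the list's median, a dashed line for the median of all genes (0.04), red for genes that passed higher and blue for the one list gene that passed lower. The blood lists lie to the right of the line, with a leukocyte median of 1.15, and the hepatoblast and mesenchymal lists to the left, with medians of −0.83 and −0.65.

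The hepatoblast list moved the other way. Of its 23 genes 21 had an interaction below 0, the median was −0.83, and *Krt8* alone passed, while *Krt18*, its partner keratin, had an interaction of −0.95 with an adjusted p of 0.0399. The difference came from non-EC cells, where 11 of the 23 genes rose at an adjusted p below 0.05, against 433 of all genes tested (3.23%), among them the liver transcription factors *Hnf4a*, *Foxa2* and *Foxa3* and the apolipoproteins *Apoa1* and *Apoa2*. The median effect was 0.81 in non-EC cells and −0.07 in LSECs. *Afp*, the fetal albumin-like serum protein, measured 7808, 7857 and 8506 TPM in control and 15779, 11339.8 and 11766 TPM in *Chd4-ECko* non-EC cells. The groups did not overlap, but the non-EC effect of *Afp*, 0.67 ± 0.26 (adjusted p 0.116), did not pass. The summed hepatoblast level was 20688, 21222 and 23049.7 TPM in control non-EC cells and 42620.0, 32401 and 32021 TPM in *Chd4-ECko* non-EC cells, and 5330.2, 8531 and 4237 TPM and 6789, 5381 and 4446 TPM in control and *Chd4-ECko* LSECs. Mutant non-EC libraries all lay above controls, by most in replicate 1, and the LSEC libraries overlapped.

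Of 15 mesenchymal genes 14 had an interaction below 0, with a median of −0.65 and none passing (limma, with 4 at an unadjusted p below 0.05). *Col1a2* and *Col3a1*, fibrillar collagens, had interactions of −1.005 ± 0.50 (adjusted p 0.318) and −0.84 ± 0.48 (adjusted p 0.377), from non-EC effects of 1.04 ± 0.36 (adjusted p 0.0875) and 0.87 ± 0.34 (adjusted p 0.121). The summed mesenchymal level of non-EC cells was 122, 64.2 and 98.6 TPM in controls and 227, 116 and 151 TPM in *Chd4-ECko*, which overlapped. *Tagln*, an actin-bundling protein of smooth muscle, fell in LSECs by 0.91 (adjusted p 0.0349) and had an interaction of −1.21 (adjusted p 0.0508). The shares of marker transcripts therefore moved with the interaction in both fractions, and their part in the single-gene results was not tested. Since TPM sum to the same total, a higher share of hepatoblast transcripts lowers all others in that library. Without *Chd4-ECko* non-EC replicate 1, the library with the highest hepatoblast sum, the hepatoblast median was −0.72 with 4 genes lower (0.776% of all genes tested) and the mesenchymal median −0.55 with 1 gene lower, and without control non-EC replicate 1 they were −0.85 and −0.72 with none. The 25 endothelial and sinusoidal genes had a median of −0.02, and no member passed in the interaction or in either fraction (limma, with 3 at an unadjusted p below 0.05 in the interaction).

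**Figure D4:**
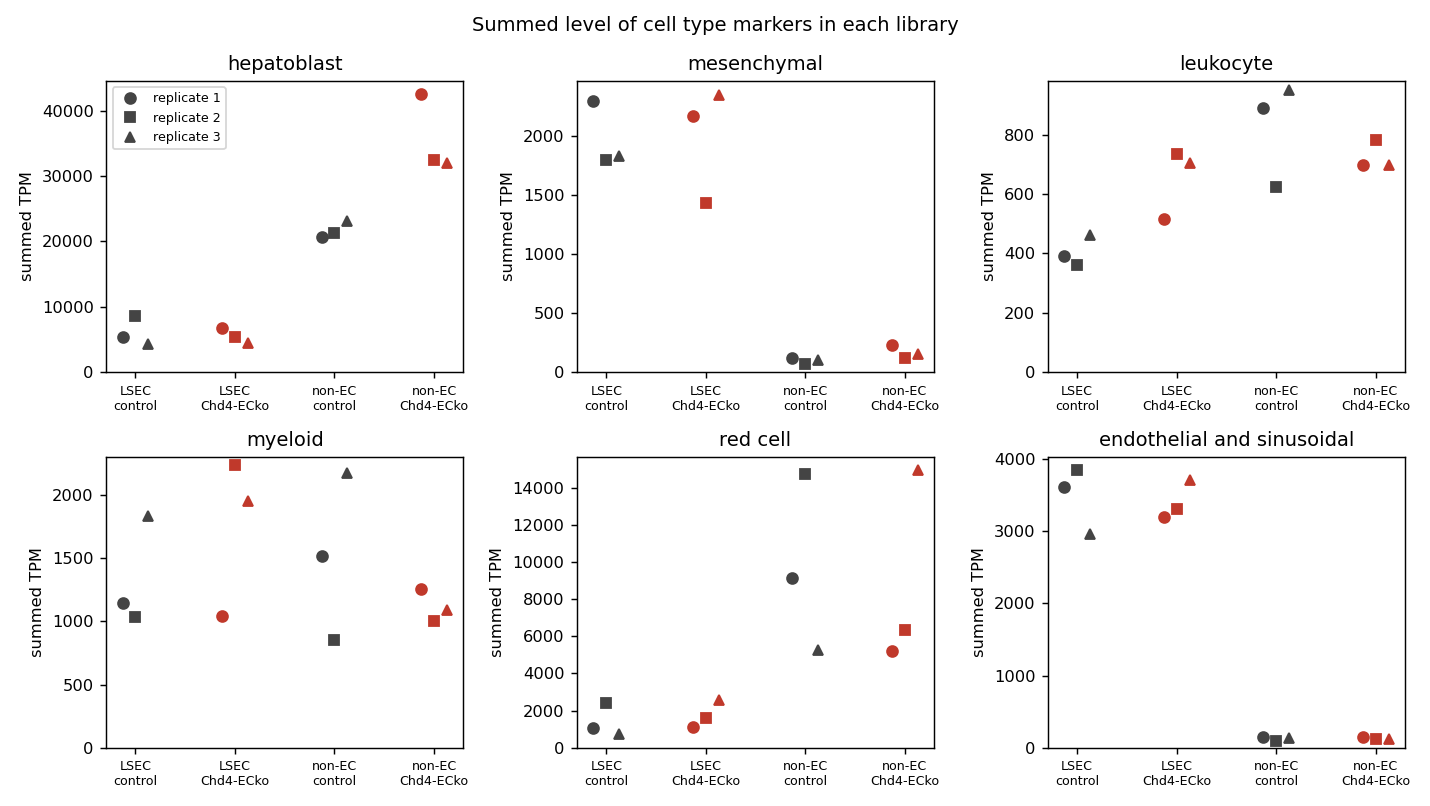
Summed TPM of 6 marker lists on the y axis in each of the 12 libraries, by group on the x axis and with a marker shape for each replicate number. Hepatoblast sums of *Chd4-ECko* non-EC cells lie at 32021 TPM or more, above controls at 23049.7 TPM or less, leukocyte sums of *Chd4-ECko* LSECs lie above control LSECs, and myeloid and red cell sums overlap.

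Some of the largest effects were shared by both fractions, and the interaction did not pass. The embryonic globins, which belong to the first wave of red cells from the yolk sac, rose in both. *Hba-x* measured 11.9, 6.14 and 11.8 TPM in control LSECs and 103, 467 and 254 TPM in *Chd4-ECko* LSECs, and 12.2, 5.41 and 4.27 TPM and 23.8, 208 and 162 TPM in non-EC cells. The mutant was above the control in both fractions, with replicate 1 lowest and replicate 2 highest in each, and the interaction was 0.83 ± 1.01 (adjusted p 0.698). *Hbb-y* had effects of 3.44 in LSECs and 4.01 in non-EC cells and an interaction of −0.56 ± 0.85 (adjusted p 0.76). *Hbb-bh1* had effects of 6.34 and 3.04, and its interaction of 3.30 ± 1.06 (adjusted p 0.168) passed only with the pairing block (adjusted p 0.0392). Reads could be split among these similar globin genes. *Tcfl5*, a factor of male germ cells, rose by 2.60 ± 0.27 (adjusted p 0.000533) in LSECs and 2.04 ± 0.27 (adjusted p 0.00855) in non-EC cells, with an interaction of 0.56 ± 0.39 (adjusted p 0.466). *Trap1a*, a tumor antigen gene of germ cells on the X chromosome, rose by 3.52 ± 0.35 (adjusted p 0.000377) and 1.65 ± 0.35 (adjusted p 0.0265), with an interaction of 1.88 ± 0.50 (adjusted p 0.102). The 6 tested germ cell genes were all above 0, with a median interaction of 0.59, the 10 striated muscle genes had a median of −0.38, and none of either list passed (limma, with 3 of each at an unadjusted p below 0.05). Without *Chd4-ECko* non-EC replicate 1 *Trap1a* passed (1.48, adjusted p 0.0303), as it did in the model of all 24 libraries (adjusted p 0.0447). Without that library *Trap1a* was the 1 germ cell gene to pass higher and 1 striated muscle gene passed lower, as did 7.26% and 0.776% of all genes tested. A p that misses the threshold does not show that the effects were equal.

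Several genes that the study followed in *Chd4-ECko* livers were compared in the same way, and none passed in the interaction under the model used throughout (limma). *Plaur*, the urokinase receptor that localizes plasmin activation, measured 5.65, 7.67 and 8.08 TPM in control LSECs and 13.7, 13.9 and 15.4 TPM in *Chd4-ECko* LSECs, and 3.95, 2.44 and 5.12 TPM and 3.67, 3.21 and 2.88 TPM in non-EC cells. The LSEC groups did not overlap, as for 8.79% of all genes tested in that direction, and the non-EC groups did. The interaction was 1.07 ± 0.29 (adjusted p 0.109). *Plaur* passed in 4 of 21 alternatives, which were without *Chd4-ECko* non-EC replicate 1 (1.14, adjusted p 0.0258), without control non-EC replicate 2 (1.30, adjusted p 0.0451), with quantile normalization (adjusted p 0.0458) and in the model of all 24 libraries (adjusted p 0.0447). *Icam1*, a leukocyte adhesion molecule, measured 38.9, 42.5 and 35.4 TPM and 50.8, 55.6 and 56.0 TPM in control and *Chd4-ECko* LSECs and 16.2, 7.26 and 15.8 TPM and 21.5, 21.3 and 19.9 TPM in control and *Chd4-ECko* non-EC cells. All mutant libraries of both fractions were above their controls, with effects of 0.47 ± 0.22 (adjusted p 0.695) and 0.71 ± 0.22 (adjusted p 0.0736), and the interaction was −0.24 ± 0.32 (adjusted p 0.717). *Vcam1*, another adhesion molecule, had an interaction of −0.58 ± 0.28 (adjusted p 0.306). *Tnf*, the inflammatory cytokine, measured 1.10, 0.638 and 1.99 TPM in control LSECs and 2.17, 1.93 and 2.33 TPM in *Chd4-ECko* LSECs, which overlapped. It measured at most 0.651 TPM in non-EC cells, with an interaction of 0.59 ± 0.31 (adjusted p 0.338). Neither *Plaur* nor *Tnf* had an adjusted p below 0.05 for the effect within LSECs (limma). The study, with other tests, reported both as significantly raised in *Chd4-ECko* LSECs. The cytokine *Il1b* had an interaction of 0.75 ± 0.20 (adjusted p 0.106), its groups did not overlap in either fraction, and without *Chd4-ECko* non-EC replicate 1 the interaction was 0.81 (adjusted p 0.0355). *Il6* did not reach the level for testing, with at most 0.674 TPM in any library. *Plau*, the plasminogen activator urokinase, had non-EC and LSEC effects of 0.78 ± 0.19 (adjusted p 0.0425) and 0.53 ± 0.19 (adjusted p 0.378) and an interaction of −0.25 ± 0.27 (adjusted p 0.657). The factor *Rela* had an interaction of −0.01 and *Smarca4*, which encodes BRG1, one of −0.05.

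The pathway lists around these genes had medians between −0.38 and 0.36. The 19 tested NFkB response genes had a median interaction of −0.01 with 9 above 0, the 19 interferon response genes 0.36 with 13 above 0, the 10 antigen presentation genes −0.13, the 11 plasminogen system genes −0.38, the 16 immediate-early genes −0.08, the 13 NuRD subunits −0.03 and the 20 BAF subunits −0.003, and no gene of these lists passed (limma, with 16 of the 108 at an unadjusted p below 0.05). Without *Chd4-ECko* non-EC replicate 1, *Plaur* of the plasminogen system passed higher and 1 other gene of that list lower. In that fit 1 BAF subunit passed higher and 1 immediate-early gene lower, where 7.26% of all genes tested passed higher and 0.776% lower. The interferon response median was 0.20 in the same fit. With quantile normalization the plasminogen system again had 1 gene higher and 1 lower, where 80 and 111 of the 13397 genes passed. In non-EC cells *Cxcl1*, a neutrophil-attracting chemokine, rose by 1.10 ± 0.21 (adjusted p 0.0188) and *Usp18*, an interferon-induced protease, by 1.003 ± 0.20 (adjusted p 0.0206), and their interactions were −0.63 ± 0.29 (adjusted p 0.294) and −0.47 ± 0.28 (adjusted p 0.394).

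The same contrast was formed for *Brg1/Chd4-ECdko* embryos and for *Brg1-ECko* embryos, using the same controls. The former were homozygous for both floxed alleles, and the latter were *Brg1* fl/fl;*Chd4* fl/+, so that their endothelium also carried 1 floxed *Chd4* allele, and both carried *VE-cadherin-Cre*. Because the controls are shared, the 3 interactions are not independent, and values are given side by side. The *Brg1/Chd4-ECdko* contrast had 8 passing genes (0.0597%), and that of *Brg1-ECko* had 91 (0.679%). The *Brg1/Chd4-ECdko* interaction was 2.15 for *Car1*, 3.05 for *Ptprcap*, 1.65 for *Samsn1* and 1.75 for *Nefh*, and the *Brg1-ECko* interaction 1.33, 0.87, 1.41 and 0.56 for the same genes. The values were −1.75 for *Ly6a* and −1.07 for *Ramp2* in the double mutant, and −0.86 and −1.21 for these genes in *Brg1-ECko*. Among the 36 higher genes the median was 0.94 in the double mutant and 0.97 in *Brg1-ECko*, and among the 31 lower genes −0.63 and −0.86.

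Tested directly, in a model of all 24 libraries that cancels the shared controls, 5 genes had a larger interaction in *Chd4-ECko* than in *Brg1/Chd4-ECdko* (0.0373%) and none a smaller one (limma, with 724 genes of either direction at an unadjusted p below 0.05). They were *Prl3b1*, *Sncg*, *Thy1*, *Cpa1* and *Cyp4b1*, of which *Prl3b1*, *Thy1* and *Cyp4b1* are among the 36 and *Cpa1*, a pancreatic carboxypeptidase, was named after its values were seen. *Prl3b1* and *Cyp4b1* entered the tested set through *Chd4-ECko* LSECs, so their part of this count is no support and both are described by their values. *Prl3b1* measured 0, 0.502 and 0 TPM in *Brg1/Chd4-ECdko* LSECs. With no filter on low values the same 5 genes passed. *Thy1* had an interaction of 1.59 in *Chd4-ECko* and −0.24 in the double mutant, a difference of 1.83 ± 0.27 (adjusted p 0.00557). *Sncg* had 0.98 and −0.72, a difference of 1.70 ± 0.24 (adjusted p 0.00312). In *Brg1/Chd4-ECdko* LSECs *Cyp4b1* measured 1.76, 1.57 and 2.69 TPM and *Thy1* 2.74, 2.90 and 3.03 TPM. *Cyp4b1* was therefore between the control and *Chd4-ECko* LSECs and *Thy1* was near the control level. None of the 5 passed with the pairing block, when no gene differed (1079 at an unadjusted p below 0.05), nor with a pseudocount of 0.1 TPM. At a mean of at least 5 TPM 1 gene differed, and without *Chd4-ECko* non-EC replicate 1 130 genes did. No difference from *Brg1/Chd4-ECdko* was detected for the blood cell genes, for which the adjusted p was 0.783 for *Car1*, 0.893 for *Ptprcap* and 0.901 for *Myb*, nor for any of the 31 lower genes.

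**Figure D5:**
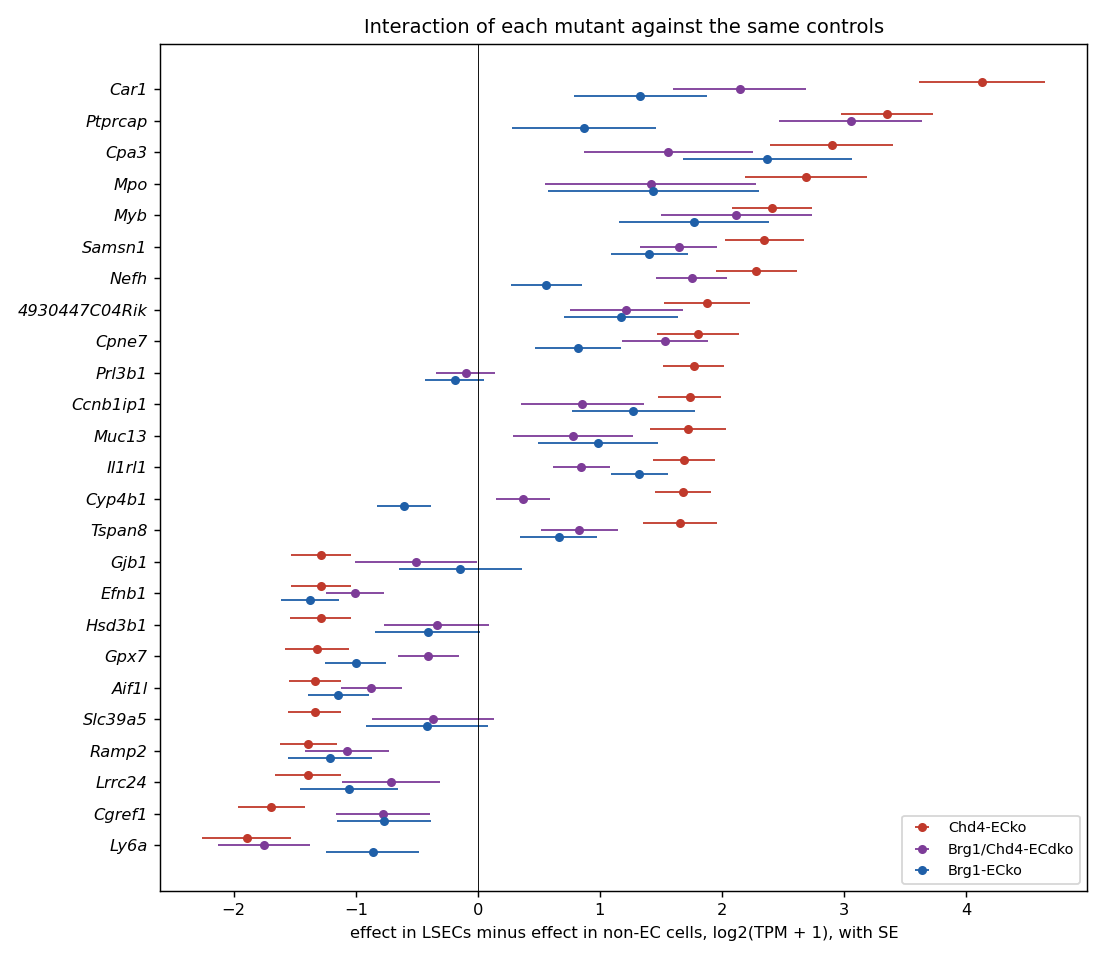
Interaction of the 25 leading genes in *Chd4-ECko*, *Brg1/Chd4-ECdko* and *Brg1-ECko* against the same controls, in log2(TPM + 1) on the x axis with SE as bars. *Prl3b1* and *Cyp4b1* lie near 0 or below in the other two mutants, except *Cyp4b1* at 0.37 in *Brg1/Chd4-ECdko*, while *Ptprcap* and *Myb* lie to the right in all 3.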

How the data were processed

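Embryonic livers were dissociated with transcription inhibitors in the digestion, red cells were lysed, and LSECs were separated on CD146 magnetic beads. Poly-A RNA was sequenced as paired reads, and the authors computed gene-level TPM in CLC Genomics Workbench on mouse GRCm39 (mm39). The deposited values are TPM, so each library sums to the same total, the depth of each single library is unknown, and count tests were not used. The 8 deposited columns of group means were not used.

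From these values, the 13397 genes that reached 1 TPM in 3 or more of the 12 libraries were fitted on log2(TPM + 1) with limma 3.58.1 (R 4.3.3) with a mean trend, and the interaction and both effects were adjusted by the Benjamini-Hochberg method over all of them. Each group had a mean, and libraries were taken as unpaired outside the replicate blocks. Errors are SE unless stated, and embryos are the replicates. The fit was tested on simulated data. The members and the 21 gene lists were chosen with earlier results of these data known.

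Genes were named by rule: the 4 marker genes *Nefh*, *Cyp4b1*, *Car1* and *Samsn1*, up to 15 with the largest and up to 10 with the smallest passing interactions, genes followed by the study, up to 4 passing members of each list or otherwise its 2 most abundant, and up to 5 with the smallest p in non-EC cells. Within a genotype, deviations from group means of same-numbered LSEC and non-EC libraries correlated at 0.129 to 0.422 (6 pairs, mean 0.293), against −0.317 to 0.155 for 12 other pairings. For the block, the numbers were therefore taken to pair the libraries. The labels do not say that same-numbered libraries share an embryo. Same-numbered control and *Chd4-ECko* LSEC libraries, which are different embryos, also correlated, at 0.113 to 0.390 (mean 0.247). Those of unlike number had a mean of −0.125. Between control and *Chd4-ECko* non-EC libraries the means were 0.037 and −0.026. What the number stands for was not tested. Alternatives were another pseudocount, other filters, quantile normalization, removal of mitochondrial genes, no trend, replicate blocks, no size threshold, other sets of libraries and leaving out each library. Sequences and positions came from GRCm39 and its GENCODE annotation. 1 list member is not reported here by name.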

Additional observations from a re-analysis of the deposited data

Results flagged for a closer look

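The *Chd4-ECko* effect differed between LSECs and non-EC cells, by a test of the difference itself, for 67 genes, of which 30 were named by rule. That test took the libraries as unpaired, and 48 genes passed with the pairing block. In 7 of the 67 the filter on low values favored a difference, among them *Cyp4b1*, *Prl3b1* and *Lrrc24*, which reached the level for testing only through the group in which they were highest and are listed here by value. Among the genes with a higher effect in LSECs, the blood and mast cell genes had interactions of 4.13 for *Car1*, 3.35 for *Ptprcap*, 2.90 for *Cpa3*, 2.69 for *Mpo*, 2.41 for *Myb*, 2.35 for *Samsn1*, 1.69 for *Il1rl1* and 1.42 for *Ikzf1*. The others were 2.28 for *Nefh*, 1.88 for *4930447C04Rik*, 1.80 for *Cpne7*, 1.77 for *Prl3b1*, 1.74 for *Ccnb1ip1*, 1.72 for *Muc13*, 1.68 for *Cyp4b1*, 1.65 for *Tspan8* and 1.59 for *Thy1*.

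Among the genes with a lower effect in LSECs, the interaction was −1.89 for *Ly6a*, −1.69 for *Cgref1*, −1.39 for *Lrrc24*, −1.39 for *Ramp2*, −1.34 for *Slc39a5*, −1.33 for *Aif1l*, −1.32 for *Gpx7*, −1.29 for *Hsd3b1*, −1.29 for *Efnb1*, −1.29 for *Gjb1*, −1.17 for *Aldoc*, −1.06 for *Krt8* and −1.05 for *Sdc4*. Groups of 3 are too small for a test of single outlying libraries.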

How the results depend on the processing

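All 30 passing genes named by rule kept their direction under every alternative that gave them a value. An adjusted p below 0.05 was kept by 23 at a pseudocount of 0.1 TPM, 17 without a filter, 23 without mitochondrial genes and 18 with the pairing block. It was kept by 16 in the model of all 24 libraries and by 0 to 30 without single libraries (9 without *Chd4-ECko* LSEC replicate 2). *Mpo* lost it in 14 of 21 alternatives, *Ly6a* in 15 of 20 and *Lrrc24* in 16 of 20. The counts of passing genes moved with the fit. The 67 genes of the interaction became 38 without a filter (26 higher, 12 lower) and 191 with quantile normalization within fractions (80 and 111), and ranged from 0 (without control non-EC replicate 1) to 1077 (without *Chd4-ECko* non-EC replicate 1) when single libraries were left out. Leaving out both libraries of a same-numbered pair, an alternative chosen after seeing the data, gave 0 without control pair 1 (limma, 1384 at an unadjusted p below 0.05), 35 without control pair 2, 0 without control pair 3 (1379), 1069 without *Chd4-ECko* pair 1, 5 without pair 2 and 6 without pair 3. The pairing block gave 48 (40 and 8), and the model of all 24 libraries 95 (67 and 28). The 63 genes of the LSEC effect became 40 at a mean of at least 5 TPM, 97 without a size threshold, 104 with the groups of that fraction alone and 30 to 98 without single libraries. The 89 genes of the non-EC effect became 164 at a pseudocount of 0.1 TPM (123 higher, 41 lower), 54 without a filter (38 and 16), 248 with quantile normalization (84 and 164), 57 without mitochondrial genes, 253 with the replicate number as a block (63 and 190), 545 without a size threshold (433 and 112), 342 in the model of 24 libraries (43 and 299), 30 with its groups alone (28 and 2) and 24 to 1029 without single libraries. The pairing block cannot be fitted to an effect within a fraction, where each pair has 1 library. The 5 genes that differed from *Brg1/Chd4-ECdko* became 0 at a pseudocount of 0.1 TPM (limma, 674 at an unadjusted p below 0.05), 1 at a mean of at least 5 TPM, 0 with the pairing block (1079) and 4 to 130 without single libraries. Small interactions changed sign: without mitochondrial genes, *Rela* was 0.017 and *S100a10* 0.0079, and over all alternatives *Rela* ranged from −0.12 to 0.10, *S100a10* from −0.27 to 0.27, *Smarca4* from −0.13 to 0.11, *H2-D1* from −0.19 to 0.10, *Icam1* from −0.42 to 0.10, *Lyve1* from −0.63 to 0.0894, *Hbb-y* from −1.20 to 0.0432 and *Hba-x* from −0.14 to 1.41. The cause was not tested, other than that fewer libraries enter. List medians moved as well. Over the alternatives the germ cell median ranged from 0.092 to 1.09, the striated muscle median from −0.73 to −0.015 and the plasminogen system median from −0.54 to −0.24. With 3 embryos a group and no read counts, the precision of genes near 1 TPM is not known.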

Other observations

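Genes of cholesterol synthesis, a list chosen after their values were seen, were higher in *Chd4-ECko* non-EC cells than in the controls. Of 26 genes tested, 22 had a non-EC effect above 0, with a median of 0.51, and 11 had an adjusted p below 0.05 (limma), where 3.23% of all genes tested rose so. In 18 the mutant libraries were all above the controls and in 1 all below, against 15.3% and 10.8% of all genes tested. Since these values chose the list, the counts are a description and no test. In LSECs the median was −0.03, with 13 above 0, and none passed. The interaction was below 0 for 23, with a median of −0.54, and had an adjusted p below 0.05 for *Fdps*, *Fdft1* and *Mvk*, none of them past a size of 1. *Fdps*, the farnesyl diphosphate synthase of this pathway, measured 253, 260.2 and 266 TPM in control non-EC cells and 414, 458 and 534 TPM in *Chd4-ECko* non-EC cells. In LSECs it measured 123, 134 and 124 TPM in controls and 128, 133 and 120.2 TPM in *Chd4-ECko*. The non-EC groups did not overlap and the LSEC groups did. The same non-EC libraries held more hepatoblast transcripts, and the part of that difference in these values was not tested.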
